A study of Mus musculus with 32 samples.

Results

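Collagen chain genes were taken as all genes on the array whose mouse symbol is Col, a number, the letter a and a number, such as Col1a1 or Col4a3. The rule found 42 genes among the 15780 named genes tested. They were sorted into 11 fibrillar chains, 8 basement membrane chains (the 6 type IV chains with Col15a1 and Col18a1) and 23 other chains. The rule used gene names alone and no measured value. However, the collagen genes, the classes and the gene lists used below were chosen with earlier results of these data known.

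Expression was measured in RNA of whole saline-perfused kidneys from lupus-prone mice, on 32 Affymetrix arrays, and is given as log2 units, in which a difference of 1 is a 2-fold difference. NZB/W mice were untreated, 30 weeks old and without proteinuria (7 kidneys), in early remission after triple therapy with CTX (cyclophosphamide), CTLA4Ig and anti-CD154 (8), late in remission after that triple therapy (6), or in late remission after Ad-TACI-Ig with CTLA4Ig (5). CTLA4Ig and anti-CD154 block T cell costimulation, and TACI-Ig is a soluble receptor for the B cell factors BAFF and APRIL, made in the mouse from an adenovirus (Ad). NZM2410 mice were in remission after Ad-BAFF-R-Ig, an adenovirus that makes a soluble BAFF receptor (6 kidneys). Ages of the treated mice were not in the labels used here. The 30-week mice served as the untreated reference, kidneys of young or nephritic mice were not analysed here, and each sample was taken as a separate animal, although 1 mouse code stands on both a 30-week and an early remission sample. All NZM2410 mice carried 1 treatment and no untreated NZM2410 kidney was compared, so strain, treatment and any array batch cannot be told apart in the contrasts of that group.

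Collagens are trimers of chains wound into a triple helix, secreted and assembled outside the cell. Fibrillar chains, made mainly by fibroblasts and related stromal cells, build the interstitial fibres that accumulate in a scarred kidney. Type IV chains form sheet networks. The network of Col4a1 and Col4a2 lies in nearly all basement membranes, whereas Col4a3, Col4a4 and Col4a5 form the network of the mature glomerular basement membrane that podocytes lay down. Whole kidney RNA averages over all of these cells, and fewer cells of a type cannot be told apart from less RNA per cell.

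Array medians lay between 7.02 and 7.16. The spread of values within an array (SD over probe sets) was 1.91 to 2.04 in the NZB/W kidneys and 2.12 to 2.18 in the NZM2410 kidneys. Podocyte markers averaged 8.01 to 8.17 in the 5 groups. Adrenal cortex markers averaged 8.16 at 30 weeks but 5.60 after TACI-Ig and 5.52 in NZM2410. Adipose markers averaged 7.91 at 30 weeks and 5.87 in NZM2410.

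A mean log2 value above 6 over the 32 kidneys was reached by 28 of the 42 collagen genes, next to 67.8% of all genes. All 8 basement membrane chains passed, with means of 10.82 for Col4a1, 9.47 for Col4a2, 10.01 for Col4a3, 9.20 for Col4a4, 8.82 for Col4a5, 6.46 for Col4a6, 7.82 for Col15a1 and 9.65 for Col18a1. Of the 11 fibrillar chains 8 passed. These were Col1a1 (7.59), Col1a2 (8.19), Col2a1 (6.10), Col3a1 (9.83), Col5a1 (6.93), Col5a2 (7.91), Col5a3 (6.59) and Col27a1 (9.11).

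Among the other chains 12 of 23 passed. The type VI chains Col6a1 (8.02), Col6a2 (8.51) and Col6a3 (8.26), which form beaded microfilaments, were among them. So were Col7a1 (6.81) of the anchoring fibrils, Col8a1 (6.46) of the short-chain networks, and the transmembrane chains Col23a1 (6.18) and Col25a1 (8.18). The rest were the fibril-associated chains Col9a1 (6.68), Col12a1 (7.00), Col14a1 (7.19), Col16a1 (7.87) and Col20a1 (6.70). Probe sets differ in brightness, so these means place a gene against the level of 6 and do not rank the chains against each other.

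The 14 chains at 6 or below ranged from 3.74 for Col6a5 to 5.76 for Col6a4. They were Col6a4, Col6a5, Col8a2, Col9a2, Col9a3, Col10a1, Col11a1, Col11a2, Col13a1, Col17a1, Col19a1, Col22a1, Col24a1 and Col26a1. Near the level of 6, Col10a1 passed in the early remission group alone (6.02) and Col26a1 in NZM2410 alone (6.10). Col5a3 and Col23a1 passed in the 4 NZB/W groups and not in NZM2410, where they averaged 5.74 and 5.41.

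For each kidney a class score was taken as the mean, over the genes of a class, of the log2 value minus that gene's mean over the 32 kidneys. The fibrillar score averaged 0.10 ± 0.08 (SD, n = 7) at 30 weeks, 0.02 ± 0.18 (n = 8) in early remission, 0.14 ± 0.24 (n = 5) after TACI-Ig and 0.12 ± 0.14 (n = 6) in the late triple therapy group. In NZM2410 it averaged -0.38 ± 0.24 (n = 6), with a lowest value of -0.68 and a highest of 0.01. Of the NZM2410 kidneys 5 scored at or below -0.26, under all NZB/W kidneys, the lowest of which was at -0.23. The exception was replicate 3 at 0.01. This separation rested in part on dim chains. Over the 8 fibrillar chains above 6 the NZM2410 score was -0.43 ± 0.34, and its values ran from -0.85 to 0.13. Replicate 3, at 0.13, lay within the range of every NZB/W group. The next highest, at -0.25, lay within early remission alone, which ran from -0.34 to 0.45.

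The basement membrane score did not follow the fibrillar one. It averaged 0.05 ± 0.07 at 30 weeks, -0.11 ± 0.13 in early remission, 0.02 ± 0.22 after TACI-Ig, 0.04 ± 0.05 in the late triple therapy group and 0.04 ± 0.21 in NZM2410. Early remission had the lowest group mean, and the other 4 group means differed by less than the SD of the TACI-Ig group. The score of the other chains averaged 0.01 ± 0.03 at 30 weeks, 0.00 ± 0.07 in early remission, 0.10 ± 0.07 after TACI-Ig, 0.05 ± 0.05 after late triple therapy and -0.15 ± 0.14 in NZM2410. These scores are descriptions and carry no test.

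**Figure D1:**
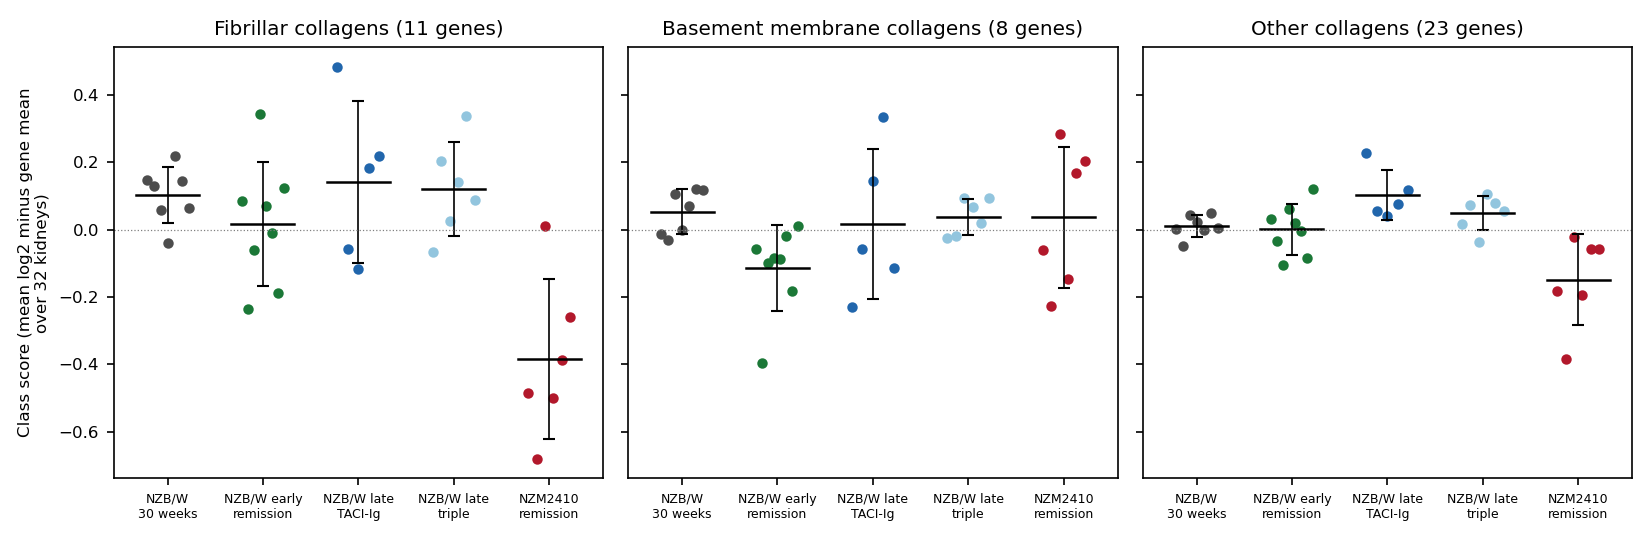
Class score of each kidney (vertical axis, log2 units relative to the mean over 32 kidneys) for the fibrillar, basement membrane and other collagens in the 5 groups (horizontal axis); points are kidneys, the black line is the group mean and the bar its SD. Fibrillar scores in NZM2410 ran from -0.68 to 0.01, and basement membrane scores in early remission from -0.40 to 0.01.

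The main interstitial fibril chains varied more between kidneys of the same group than most genes. Col1a1 and Col1a2 are the 2 chains of type I collagen and Col3a1 is the chain of type III collagen. The SD within groups, pooled over the 5 groups, was 0.78 for Col3a1, 0.53 for Col1a2 and 0.51 for Col1a1, against a median of 0.15 over the 10694 genes with a mean above 6. After TACI-Ig, Col3a1 read 11.36, 9.32, 9.31, 10.18 and 10.69 in replicates 1 to 5. In early remission its lowest value was 8.18 (replicate 2), its median 10.07 and its highest 11.10 (replicate 4). In that group replicates 2 and 4 marked the ends of the range, while the other 6 kidneys lay between 9.13 and 10.23.

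These 3 chains moved together from kidney to kidney. With group means removed, Pearson's r over the 32 kidneys was 0.92 for Col1a2 with Col3a1, 0.87 for Col1a1 with Col3a1 and 0.85 for Col1a1 with Col1a2. For the type V pair, Col5a1 with Col5a2, it was -0.30. The type VI pair Col6a1 and Col6a2, which lie next to each other on chromosome 10, gave 0.90. These correlations describe 32 arrays that were normalized together and are given without a test.

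The 250 bases before the RefSeq start (build GRCm38.p6) of Col1a2 and Col3a1 are shown because the levels of this pair ran together most closely of the 13 chain pairs compared. Windows of 33 of the 42 collagen genes were in the table used. The forward strand was read 5′ to 3′, at chr6:4505368-4505617 for Col1a2 and chr1:45311288-45311537 for Col3a1, both on the plus strand. Capitals mark TATAAA or CCAAT, searched on both strands.
Col1a2: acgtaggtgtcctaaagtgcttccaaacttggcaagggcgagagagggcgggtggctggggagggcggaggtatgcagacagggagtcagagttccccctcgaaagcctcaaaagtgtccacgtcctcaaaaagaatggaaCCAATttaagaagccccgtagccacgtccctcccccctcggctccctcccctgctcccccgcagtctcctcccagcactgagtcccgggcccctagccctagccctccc
Col3a1: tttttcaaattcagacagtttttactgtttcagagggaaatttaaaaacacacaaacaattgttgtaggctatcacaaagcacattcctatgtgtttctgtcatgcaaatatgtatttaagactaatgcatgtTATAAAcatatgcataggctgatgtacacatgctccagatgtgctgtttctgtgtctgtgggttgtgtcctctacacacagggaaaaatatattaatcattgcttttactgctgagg
The Col1a2 window held 1 CCAAT, 104 bases before the start, and no TATAAA. The Col3a1 window held 1 TATAAA, 111 bases before the start, and no CCAAT. Of 32851 windows of the same length in the table, 12.4% held TATAAA and 33.8% held CCAAT, so neither motif is rare. A match in letters is a description of the window and is not a mapped site.

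Levels of the interstitial chains ran with markers of fibroblasts and pericytes. The list held 8 genes, among them Pdgfra, Pdgfrb, Dcn and Lum, all with a mean above 6, and no collagen. With group means removed, r over the 32 kidneys of the mean marker level was 0.87 with Col1a2, 0.76 with Col3a1, 0.65 with Col1a1 and 0.75 with Col5a1. It was 0.79 with Col14a1, 0.75 with Col6a1, 0.76 with Col6a2, 0.68 with Col6a3 and 0.74 with the basement membrane chain Col15a1. The other fibrillar chains above 6 did not run with these markers, at 0.14 for Col5a3, 0.11 for Col2a1, -0.03 for Col27a1 and -0.17 for Col5a2. For the type IV chains r ran from -0.29 (Col4a3) to 0.41 (Col4a2). The mean marker level was 8.33 at 30 weeks, 8.22 in early remission, 8.20 after TACI-Ig, 8.28 in the late triple therapy group and 7.90 in NZM2410, where replicate 2 was lowest (7.40) and replicate 3 highest (8.44). The type I and III chains ran with macrophage markers too, at 0.65 for Col1a1, 0.64 for Col1a2 and 0.62 for Col3a1, whereas Col4a3 gave -0.67 and Col6a3 0.00. NZM2410 replicate 3 was the highest of its group in macrophage markers as well (9.18, the others at most 8.39). The part of either marker list in the group differences below was not tested.

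**Figure D2:**
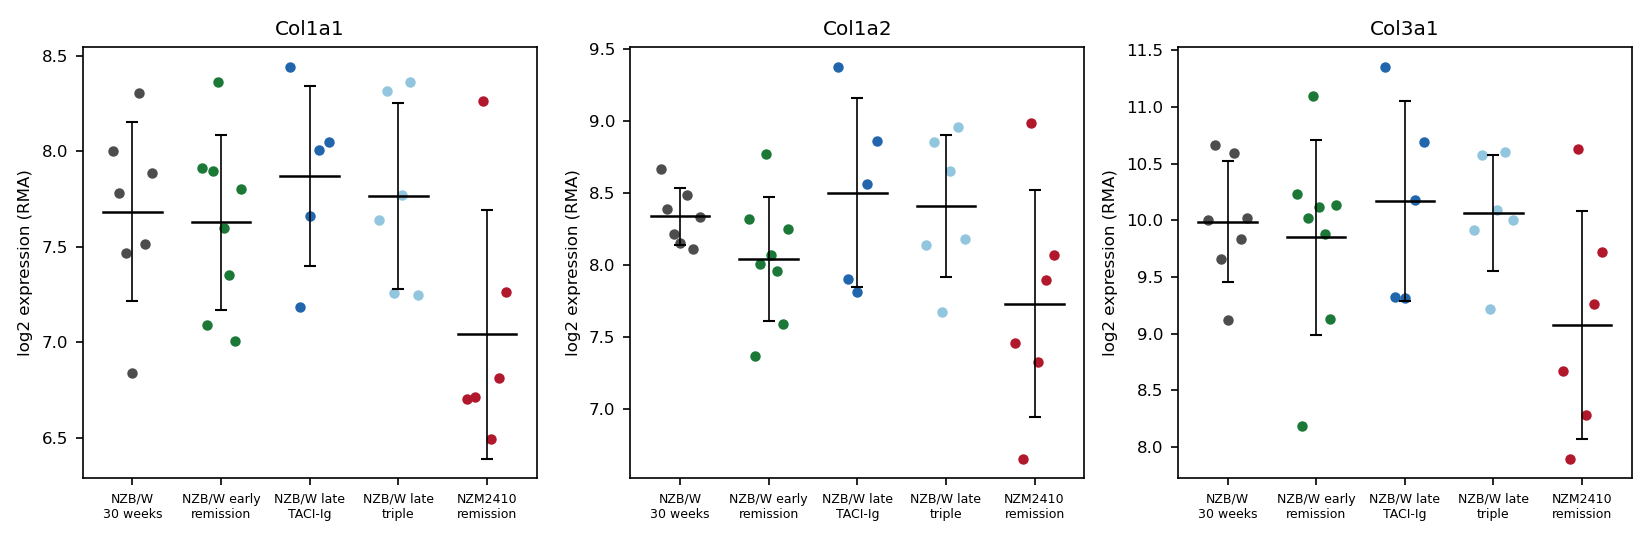
log2 expression of Col1a1, Col1a2 and Col3a1 (vertical axes) in each kidney of the 5 groups (horizontal axis); points are kidneys, the black line is the mean and the bar the SD. In NZM2410 replicate 3 stands at 8.26, 8.99 and 10.63, and the lowest kidneys at 6.50, 6.66 and 7.90.

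Whether early remission differed from the untreated 30-week state was asked with limma on the 15 kidneys of both groups. No collagen gene passed an adjusted p of 0.05, nor did any other gene (0% of 15780). At an unadjusted p under 0.05 there were 7 of the 42 collagens, next to 8.78% of all genes. Of these, 3 were basement membrane chains, and 6 of the 8 basement membrane chains were lower in early remission. The median log2 difference was -0.17 over the basement membrane chains, -0.10 over the fibrillar chains and 0.03 over the others, with 0.02 over all genes. No collagen was without overlap between the groups (0.0634% of all genes higher, 0.0697% lower).

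The smallest p of all 15780 genes in this contrast belonged to Col4a2. Its level at 30 weeks was 9.45 at the lowest, 9.63 at the median and 9.85 at the highest, and in early remission 9.06, 9.19 and 9.50. In early remission 7 of the 8 kidneys lay below all 7 of the 30-week kidneys, and replicate 8, at 9.50, lay among them. The difference was -0.43 (SE 0.07, 95% interval -0.58 to -0.27, unadjusted p = 1.94e-05), which did not pass after adjustment (adjusted p = 0.127). It passed when replicate 8 was left out (-0.47, adjusted p = 0.0143), when 30-week replicate 2 was left out (-0.45, adjusted p = 0.039) and with array weights (-0.46, adjusted p = 0.00786). It stayed uncalled in 13 of the 15 fits that left out 1 kidney (adjusted p up to 0.269). Of the 9 other alternatives 8 did not call it (adjusted p up to 0.475), among them the fit without the pair that shares a mouse code.

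Col4a1, whose chain pairs with that of Col4a2, read 10.56, 10.73 and 11.24 (lowest, median, highest) at 30 weeks and 10.45, 10.58 and 10.65 in early remission. The groups overlapped through 30-week replicate 4 at 10.56. The difference was -0.25 (SE 0.08, adjusted p = 0.371), and -0.17 without 30-week replicate 2, which had the highest value. Col8a1 differed by -0.34 (SE 0.11, adjusted p = 0.335) and Col18a1, the precursor of endostatin, by -0.20 (SE 0.08, adjusted p = 0.465). Neither passed under any alternative run.

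Col4a1 and Col4a2 are known as a head to head pair that shares 1 start region. In the RefSeq table the windows from 250 bases before to 50 after each start lay on opposite strands of chromosome 8, at chr8:11312777-11313076 for Col4a1 (minus strand) and chr8:11312555-11312854 for Col4a2 (plus strand), and shared 78 bases. With group means removed, their levels correlated at r = 0.67 over 32 kidneys, and at 0.76 without 30-week replicate 2. Col4a3 and Col4a4, neighbours on chromosome 1, gave 0.56, and Col4a5 and Col4a6, neighbours on the X chromosome, 0.30. Between the networks, Col4a1 with Col4a3 gave -0.13.

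**Figure D3:**
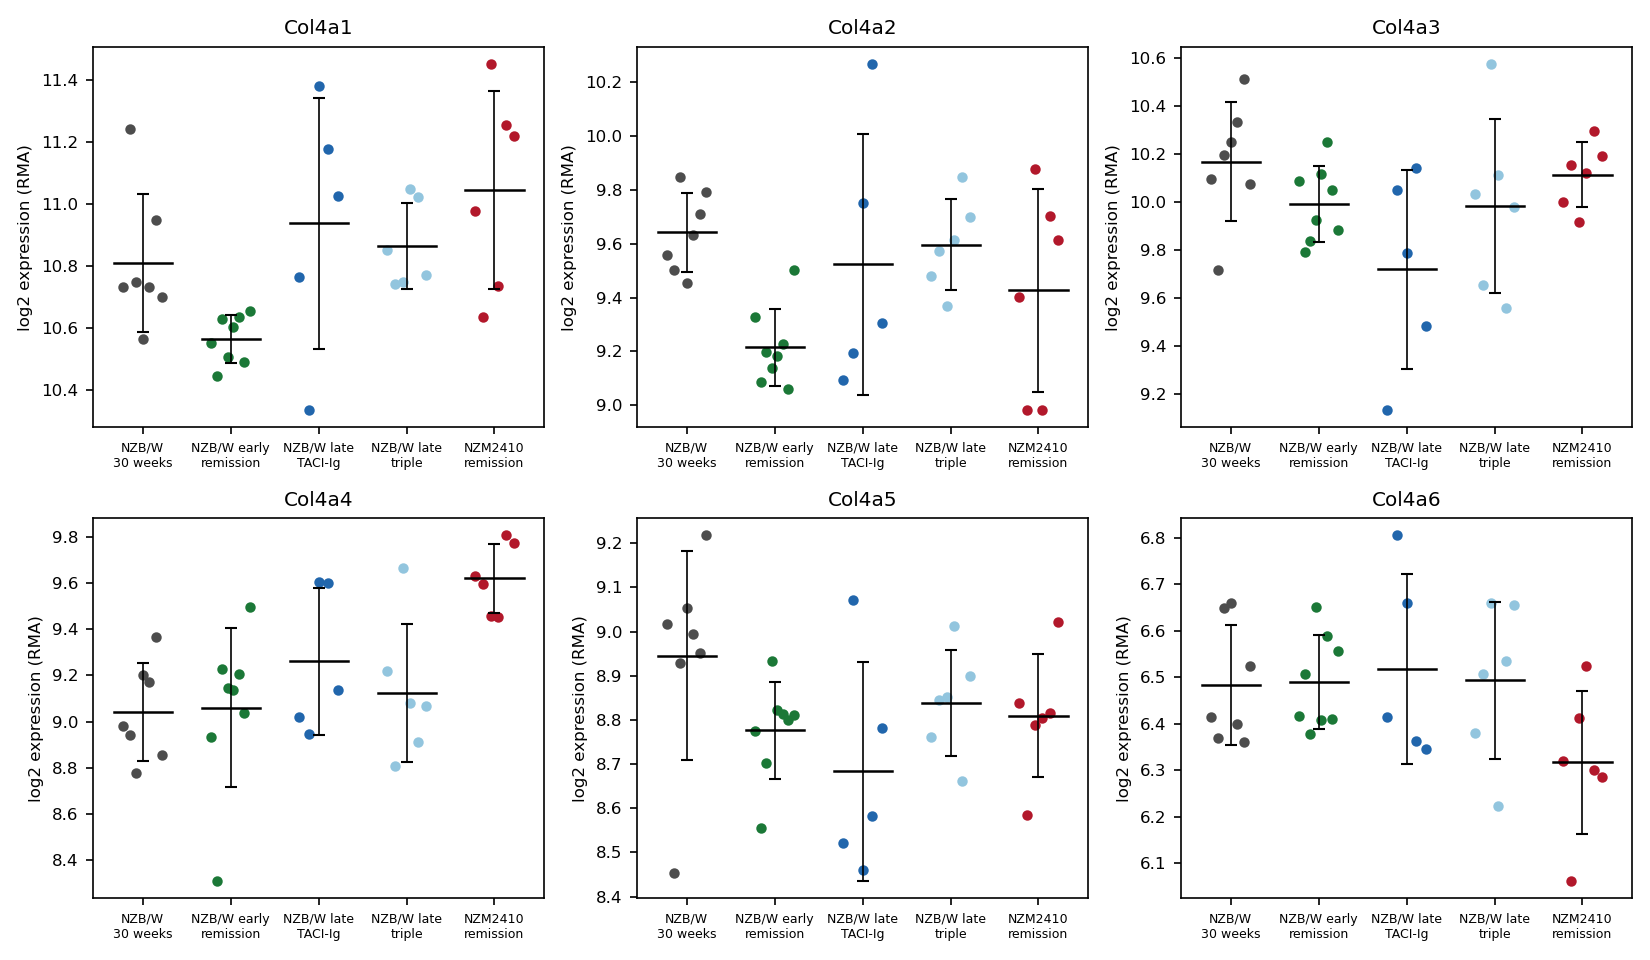
log2 expression of the 6 type IV chains (vertical axes, each on its own scale) in each kidney of the 5 groups (horizontal axis); points are kidneys, lines group means and bars SD. Col4a2 in early remission lies between 9.06 and 9.50, mostly under the 30-week range of 9.45 to 9.85, and Col4a4 in NZM2410 lies between 9.45 and 9.81, above the 30-week range of 8.78 to 9.37.

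Late remission after TACI-Ig with CTLA4Ig was set against the 30-week kidneys and against early remission. The 2 contrasts share the TACI-Ig kidneys. No collagen and no other gene passed in either one (0% of 15780 in both). At an unadjusted p under 0.05 there were 9 of 42 collagens against 30 weeks (20.3% of all genes) and 7 of 42 against early remission (14.8%).

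Against 30 weeks the smallest p values among the collagens belonged to Col7a1 (0.24, SE 0.07) and Col9a1 (0.26, SE 0.08), both with adjusted p = 0.203. Col9a1, a chain carried on the surface of cartilage-type fibrils, read 7.20, 6.79, 6.83, 6.74 and 7.00 in replicates 1 to 5 after TACI-Ig and at most 6.73 at 30 weeks. It was the collagen without overlap between these groups; such separation was seen upward in 0.564% and downward in 0.234% of all genes. Col16a1 (0.21, SE 0.07) and Col6a2 (0.23, SE 0.08) had the same adjusted p of 0.203.

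Col4a3, a chain of the glomerular network, read 9.13, 10.05, 9.79, 10.14 and 9.48 after TACI-Ig, and 9.71, 10.19 and 10.51 (lowest, median, highest) at 30 weeks. The groups overlapped, and the difference was -0.45 (SE 0.17, adjusted p = 0.205). Its partner Col4a4 was at 9.26 ± 0.32 (SD, n = 5) after TACI-Ig and 9.04 ± 0.21 (n = 7) at 30 weeks. Podocyte markers averaged 8.11 and 8.01 in these groups. TACI-Ig replicate 2 weighed on these counts. Without it 3 of the 42 collagens were higher than at 30 weeks, next to 1309 of the 15780 genes called in either direction, which is a similar share. They were Col6a2 (0.28, adjusted p = 0.0428), Col7a1 (0.29, adjusted p = 0.0321) and Col16a1 (0.28, adjusted p = 0.0322).

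Against early remission, Col5a2 differed by 0.37 after TACI-Ig (SE 0.11, adjusted p = 0.171) and Col4a1 by 0.37 (SE 0.13, adjusted p = 0.213). No collagen was without overlap (0.152% of all genes higher, 0.234% lower). Col4a1 read 10.76, 10.33, 11.38, 11.18 and 11.03, so 4 of the 5 kidneys lay above the highest early remission kidney at 10.65 and replicate 2 below the lowest at 10.45. Without replicate 2 the difference was 0.52 (adjusted p = 0.00725), and Col7a1 (0.25, adjusted p = 0.0274) and Col16a1 (0.28, adjusted p = 0.0297) also passed. These were 3 of the 42 collagens, next to 1076 of the 15780 genes called, which is a similar share.

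Late remission after triple therapy needs a caution before its values. The mean of each of the 42 collagens in this group lay within 0.0104 of its mean over the 12 pooled 30-week and TACI-Ig kidneys, and every one of the 15780 genes lay within 0.0255. The median SE of a collagen difference between this group and the 30-week group was 0.0815. The contrasts of this group are given as values of the deposited table and not as evidence apart from those 12 kidneys. Against 30 weeks no collagen and no gene passed (0% of 15780), and 0 of 42 collagens had an unadjusted p under 0.05 (0.292% of all genes).

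Against early remission no collagen passed, with 0.0697% of genes called, and 4 of 42 had an unadjusted p under 0.05 (5.31% of all genes). Col4a1 was higher by 0.30 (SE 0.06, adjusted p = 0.094) and Col4a2 by 0.38 (SE 0.08, adjusted p = 0.103). All 6 late kidneys (10.74 to 11.05) lay above all 8 early ones in Col4a1, a separation found upward in 0.0317% of genes and downward in 0.222%. Col4a2 passed without early remission replicate 8 (0.42, adjusted p = 0.0335), without late replicate 8 (0.43, adjusted p = 0.0432) and, with Col4a1, under array weights (adjusted p = 0.0119 and 0.0228). Of the 14 fits that left out 1 kidney, 12 did not call Col4a2 and none called Col4a1. Each stayed uncalled in 6 of the 7 other alternatives, in which the difference was as low as 0.21 for Col4a2 and 0.19 for Col4a1. The early remission kidneys are the same as in the contrast above.

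NZM2410 kidneys in remission differed from the 30-week NZB/W kidneys in 62.8% of all genes. Among the collagens 8 were higher and 15 lower, next to 31.5% and 31.3% of all genes, so the share of collagens called was no larger than that of all genes. After centring each array on its median the split was 4 higher and 20 lower (23.7% and 36.7% of all genes), and after quantile normalization 8 and 11 (52.1% of all genes, 27.6% higher and 24.6% lower). The fibrillar chains had 0 higher and 6 lower of 11, the basement membrane chains 2 higher and 1 lower of 8, and the others 6 higher and 8 lower of 23. The median difference was -0.51 over the fibrillar chains, -0.10 over the basement membrane chains and -0.16 over the others, with 0.02 over all genes. After quantile normalization the medians of the 3 classes were -0.56, -0.18 and -0.03.

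These counts depended on the level of the gene. Of the 5086 genes with a mean of 6 or below 57.4% were lower in NZM2410, whereas of the 10694 genes above 6 it was 18.8%. With quantile normalization, which gives all arrays 1 common distribution, these shares were 23.8% and 24.9%. Of the 14 dim collagens 8 were lower in the deposited values and 1, Col10a1, after quantile normalization. Of the 28 collagens above 6, 7 were lower in the deposited values and all 7 were lower after it, together with 3 more. The fibrillar chains above 6 are therefore given first, and the dim ones with both values.

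Col5a3, a minor chain of type V fibrils, had the largest fall. It read 6.41, 7.02 and 7.65 (lowest, median, highest) at 30 weeks and 5.63, 5.73 and 5.87 in NZM2410, with no overlap. The difference was -1.24 (SE 0.15, adjusted p = 4.63e-06) and -1.22 after quantile normalization. Col5a3 ran with adrenal cortex markers, at r = 0.63 over 32 kidneys with group means removed. The mean marker level varied mainly at 30 weeks (SD 1.62) and in early remission (SD 1.48), so this r rests mainly on those groups. In the other groups its SD was 0.08 to 0.16. The 30-week kidneys with low adrenal markers, replicates 4 (6.09) and 7 (5.52), read 6.70 and 6.41 in Col5a3. Those were the lowest Col5a3 values at 30 weeks, where the others read 6.84 to 7.65, and lay above all 6 NZM2410 kidneys. After TACI-Ig, where the adrenal markers averaged 5.60, Col5a3 differed from 30 weeks by -0.38 (adjusted p = 0.229). The part of adrenal tissue in the Col5a3 difference was not tested.

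Col3a1 read 9.12, 10.01 and 10.67 at 30 weeks and 7.90, 8.97 and 10.63 in NZM2410. The groups overlapped because NZM2410 replicate 3, at 10.63, stood next to the highest 30-week kidney, while replicates 1, 2 and 4 lay below all 30-week kidneys. The difference was -0.91 (SE 0.38, adjusted p = 0.0476), and this call was lost in 10 of the 13 fits that left out 1 kidney. It was also lost with the replicate number as a block (adjusted p = 0.0775), in the model of all groups (0.0517), without the dimmest genes (0.0541), with an intensity trend (0.0707) and with array weights (0.0521), and kept after quantile normalization (0.0388) and median centring (0.0332). Without NZM2410 replicate 3 it was -1.22 (adjusted p = 0.00361).

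Col1a1 (-0.64, SE 0.27, adjusted p = 0.0508) and Col1a2 (-0.60, SE 0.27, adjusted p = 0.0617) did not pass as deposited. Both passed after quantile normalization (adjusted p = 0.042 and 0.0461), after median centring (0.0313 and 0.0376) and with array weights (0.0305 and 0.0274). In the model of all groups Col1a1 passed (0.0368) and Col1a2 did not (0.0588). Neither passed without the dimmest genes (0.0576 and 0.0693), with an intensity trend (0.07 and 0.0828) or with the replicate number as a block (0.0804 and 0.0912). Of the 13 fits that left out 1 kidney, 11 did not call Col1a1 and 12 did not call Col1a2 (adjusted p up to 0.116 and 0.151). Without NZM2410 replicate 3 they were lower by -0.89 (adjusted p = 0.00185) and -0.86 (adjusted p = 0.00158). Col5a1 fell by 0.51 on the log2 scale (SE 0.19, adjusted p = 0.0282) and Col27a1, a fibrillar chain best known from cartilage, fell by 0.68 (SE 0.17, adjusted p = 0.00322). Both were also lower after quantile normalization, and the call on Col5a1 was lost without 30-week replicate 6 or NZM2410 replicate 4. Col2a1 and Col5a2 differed by 0.15 and -0.10 and did not pass.

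**Figure D4:**
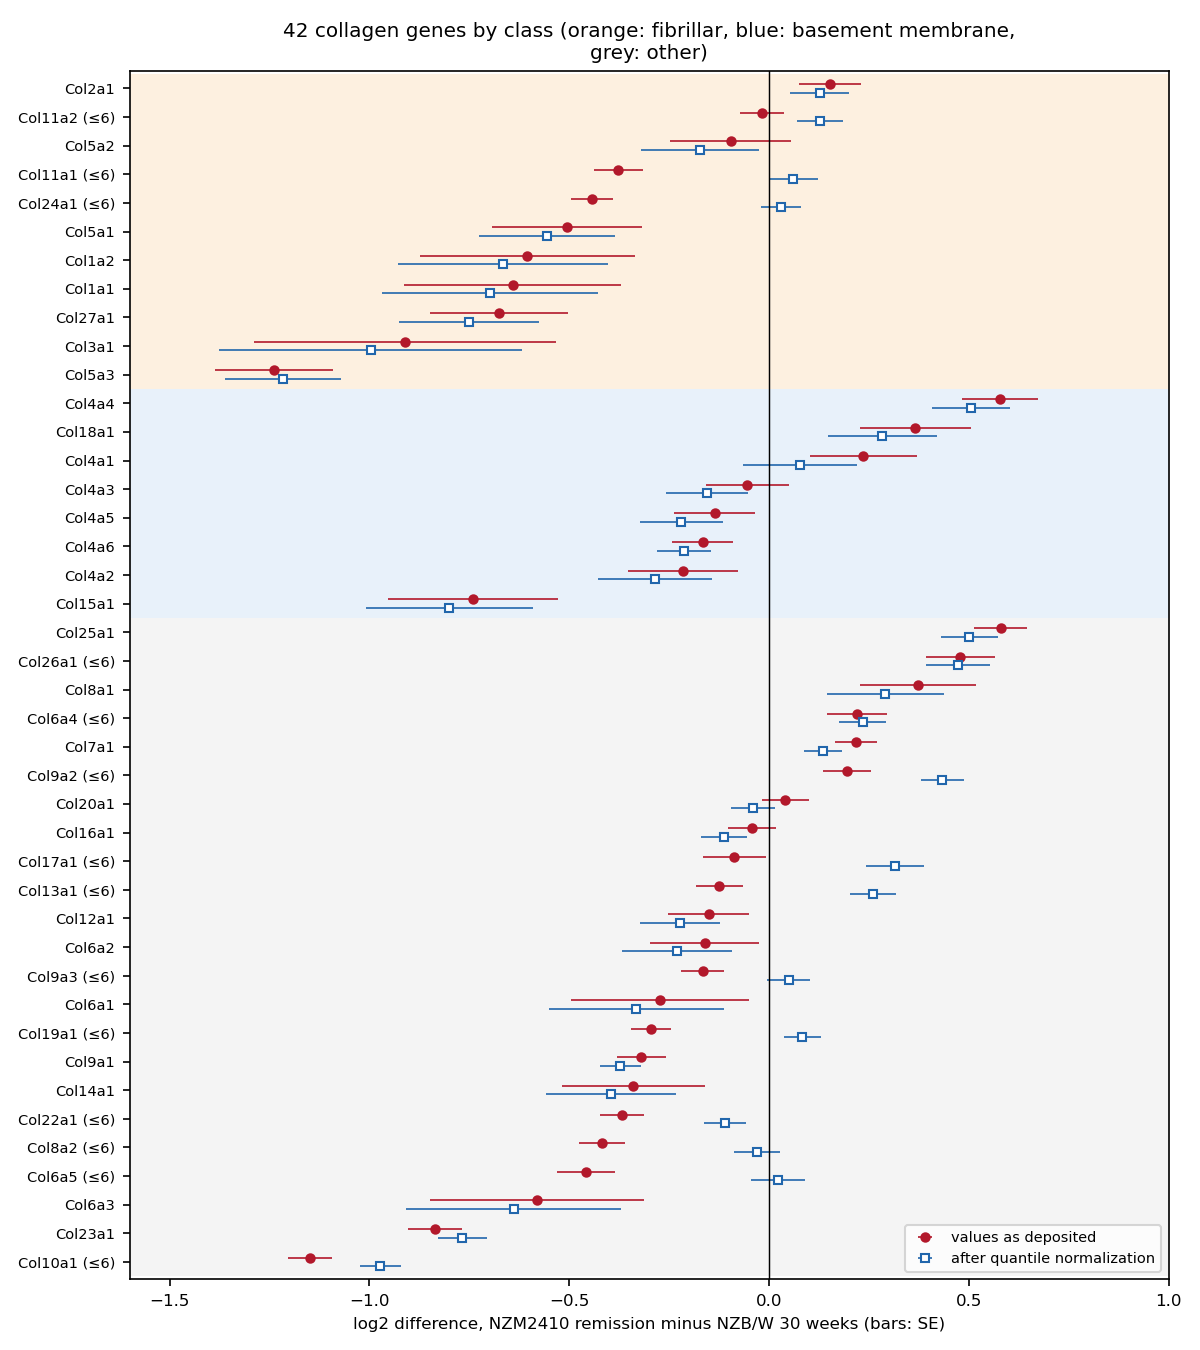
log2 difference of NZM2410 remission minus NZB/W 30 weeks (horizontal axis, bars are SE) for the 42 collagen genes (vertical axis, shaded by class; a mean of 6 or below is marked), from the values as deposited (filled circles) and after quantile normalization of the arrays (open squares). The fibrillar chains above 6 keep their side of 0 under both, while dim chains such as Col11a1 move from -0.38 to 0.06.

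The dim fibrillar chains Col11a1 and Col24a1 were called lower as deposited (-0.38 and -0.44) but lay at 0.06 and 0.03 after quantile normalization, on the other side of 0. The same turn was seen in Col6a5 (-0.46 to 0.02), Col9a3 (-0.17 to 0.05) and Col19a1 (-0.30 to 0.08). Col13a1 (-0.12 to 0.26, adjusted p = 0.0014) and Col17a1 (-0.09 to 0.32, adjusted p = 0.00216) did not pass as deposited and passed as higher after quantile normalization, and Col11a2 (-0.02 to 0.13) passed in neither. Col8a2 (-0.42 to -0.03) and Col22a1 (-0.37 to -0.11) kept their direction and lost the call.

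Among the basement membrane chains Col4a4 stood out. It read 8.78, 8.98 and 9.37 at 30 weeks and 9.45, 9.61 and 9.81 in NZM2410, so all 6 NZM2410 kidneys lay above all 7 others, as in 16.5% of all genes. The difference was 0.58 (SE 0.10, adjusted p = 0.000101), and 0.50 after quantile normalization (adjusted p = 0.000604). Its partners in the glomerular network did not pass, with -0.05 (SE 0.10) for Col4a3 and -0.14 (SE 0.10) for Col4a5, and podocyte markers averaged 8.01 at 30 weeks and 8.15 in NZM2410.

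Col15a1, a chain that links basement membranes to the interstitium, read 7.47, 7.79 and 8.44 at 30 weeks and 6.63, 7.13 and 7.92 in NZM2410. It fell by 0.74 (SE 0.21, adjusted p = 0.00733) although the groups overlapped. Its relative Col18a1 was higher by 0.37 (SE 0.14, adjusted p = 0.0323), a call that was lost after quantile normalization (adjusted p = 0.0953) and in 5 of 13 fits that left out 1 kidney. Its highest value, 10.70, was in replicate 3. Col4a1 (0.24), Col4a2 (-0.22) and Col4a6 (-0.17) did not pass, although Col4a6 did after quantile normalization (-0.21, adjusted p = 0.0168).

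Of the other chains the largest fall was in Col10a1 (-1.15, SE 0.06, adjusted p = 1.5e-09), a short-chain collagen of growth cartilage that is dim in kidney. It read 5.82 to 6.13 at 30 weeks and 4.70 to 4.95 in NZM2410, and was lower by -0.97 after quantile normalization. The transmembrane chain Col23a1 fell by 0.84 (SE 0.07, adjusted p = 1.11e-07) and the transmembrane chain Col25a1 was higher by 0.58 (SE 0.07, adjusted p = 3.33e-06). Neither overlapped between groups. In Col25a1 all NZM2410 kidneys (8.53 to 8.74) lay above all 30-week kidneys (7.78 to 8.15).

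Col9a1 fell by 0.32 (SE 0.06, adjusted p = 0.000338). Col26a1 (0.48, SE 0.09), Col7a1 (0.22, SE 0.05), Col6a4 (0.22, SE 0.07) and Col9a2 (0.19, SE 0.06) were higher as deposited and after quantile normalization, although Col6a4 and Col9a2 lost the call after median centring. Col8a1 (0.37, SE 0.15) was higher as deposited, a call lost after quantile normalization and in 8 of 13 fits that left out 1 kidney. Without overlap were 2 chains above and 10 below, next to 16.5% and 19.9% of all genes. The type VI chains Col6a1 (-0.27), Col6a2 (-0.16) and Col6a3 (-0.58, SE 0.27, adjusted p = 0.0719) did not pass.

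Some markers of the cells that make fibrillar collagen were lower in the same contrast, and others did not pass. Of the 8 fibroblast and pericyte markers 4 were lower in NZM2410, next to 31.3% of all genes, with a median difference of -0.34, and the count was also 4 after quantile normalization and after median centring. Lum (-1.08), Mgp (-0.78), Dcn (-0.63) and Fbln1 (-0.50) were lower, whereas Pdgfra (-0.11), Pdgfrb (-0.17), Thy1 (-0.18) and Cspg4 (0.01) did not pass. Lum and Dcn also stand in the list of fibril-binding proteins below. All 7 adrenal cortex, all 4 adipose and all 3 lymphoid markers were lower as well. Smooth muscle markers had 0 higher and 2 lower of 5, endothelial markers 4 and 2 of 7, proximal tubule markers 1 and 1 of 6, and urothelial markers 0 and 1 of 5. None of the 6 podocyte or 7 macrophage markers passed. Their part in the collagen differences was not tested.

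**Figure D5:**
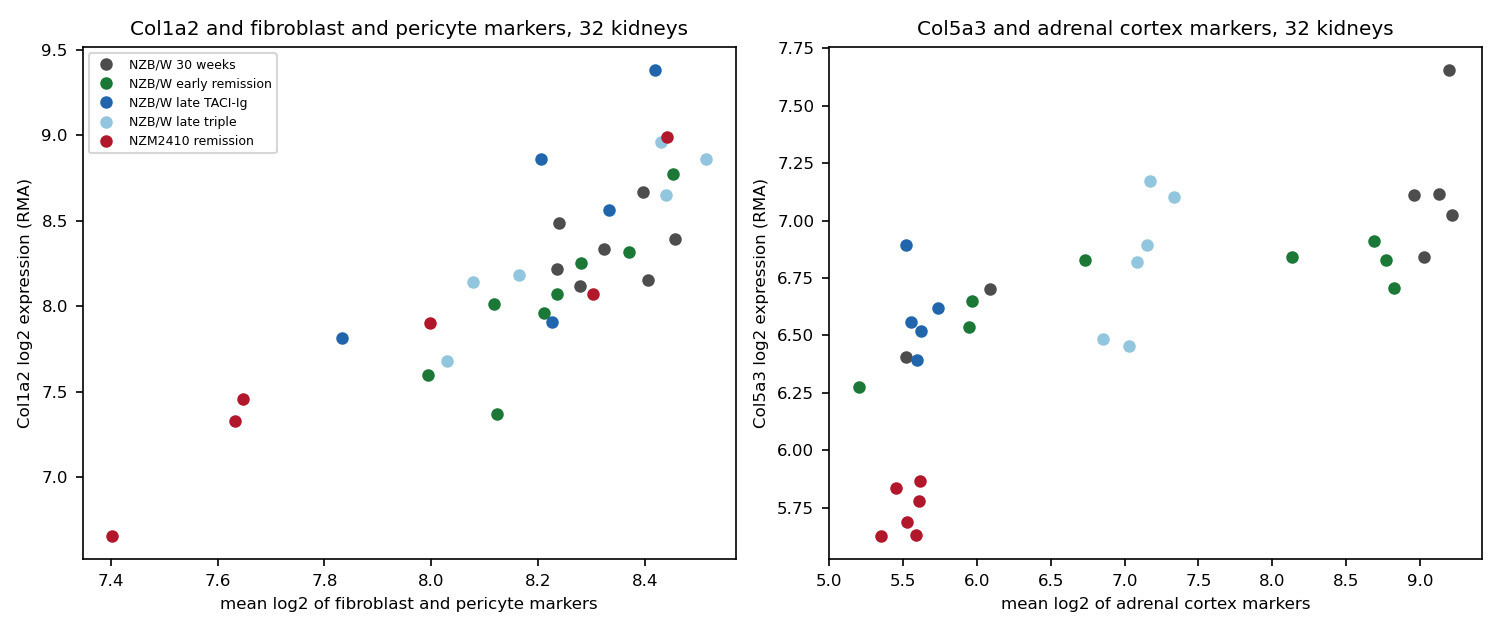
Left, Col1a2 (vertical axis, log2) against the mean log2 of 8 fibroblast and pericyte markers (horizontal axis); right, Col5a3 against the mean log2 of 7 adrenal cortex markers; each point is 1 of 32 kidneys coloured by group. With group means removed r was 0.87 on the left and 0.63 on the right, and the 6 NZM2410 kidneys lie below all others in Col5a3.

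NZM2410 was also compared with the TACI-Ig group, which like NZM2410 had been treated and was low in adrenal cortex markers (5.60 and 5.52). The contrast shares the NZM2410 kidneys with the previous one. It called 59.5% of all genes, and 5 collagens were higher and 17 lower (28.6% and 30.9% of all genes). The fibrillar chains had 0 higher and 5 lower of 11, the basement membrane chains 2 and 1 of 8, the others 3 and 11 of 23. After quantile normalization 4 collagens were higher and 11 lower (47.8% of all genes, 24.5% higher and 23.3% lower), of which 3 and 8 had been called in the same direction before, and after median centring 3 and 21 (22.6% and 35.6% of all genes). Among the 14 dim collagens 10 were lower as deposited and 1 after it. Median differences were -0.48, 0.12 and -0.28 for the 3 classes as deposited, and -0.38, -0.04 and -0.09 after quantile normalization. The basement membrane median thus changed sign, and its counts became 0 higher and 1 lower. Of the 8 fibroblast and pericyte markers 0 passed in this contrast, with a median difference of -0.29, and 2 were lower after quantile normalization.

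Side by side with the 30-week contrast, Col5a3 was lower than after TACI-Ig by -0.86 (SE 0.09, adjusted p = 5.49e-06), Col27a1 by -0.52 (SE 0.10, adjusted p = 0.000428) and Col15a1 by -0.94 (SE 0.24, adjusted p = 0.00427). Col1a1 passed here (-0.83, SE 0.29, adjusted p = 0.0272), although not in 7 of the 11 fits that left out 1 kidney, while Col3a1 (-1.10, SE 0.48, adjusted p = 0.0649) and Col1a2 (-0.77, SE 0.37, adjusted p = 0.0904) did not. Col8a1 was higher by 0.67 (SE 0.14, adjusted p = 0.00128). Col4a4 (0.36) and Col4a3 (0.39) were higher as deposited but lost the call after quantile normalization (adjusted p = 0.136 and 0.179) and in 5 and 8 of the 11 fits that left out 1 kidney. Without overlap were 1 chain above and 12 below (16.1% and 22.4% of all genes).

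The genes that act on collagen were followed as 6 lists. None of them had a called member in a contrast among NZB/W groups. Their counts in NZM2410 against 30 weeks are to be read next to 31.5% of all genes higher and 31.3% lower as deposited, and 27.6% and 24.6% after quantile normalization. The small proteoglycans and other proteins that bind fibrils had 2 higher and 7 lower of 11, and 1 and 8 after quantile normalization. Postn, which codes for periostin, fell by 1.56 (SE 0.15), and Lum, which codes for lumican, fell by 1.08 (SE 0.20). Tnxb, a tenascin, was higher by 0.67 (SE 0.14).

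Collagen breakdown genes had 2 higher and 6 lower of 13 as deposited, but 1 and 3 after quantile normalization, and 6 of the 13 had a mean of 6 or below. Mmp8, a neutrophil collagenase, differed by -0.73 as deposited and by -0.61 after quantile normalization. Timp4, a protease inhibitor, differed by -0.46 and -0.10. The enzymes that hydroxylate and fold the chains had 4 higher and 2 lower of 13, and 4 and 5 after quantile normalization. P4ha1, a prolyl hydroxylase subunit, was higher by 0.55 (SE 0.13), Plod2, a lysyl hydroxylase, by 0.51 (SE 0.13), and Crtap fell by 0.30 (SE 0.08).

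Genes of propeptide cleavage and crosslinking had 6 higher and 2 lower of 13, and 4 and 2 after quantile normalization. Pcolce2, an enhancer of procollagen cleavage, fell by 1.91 (SE 0.16). Receptors had 4 higher and 2 lower of 9, and 2 and 2 after quantile normalization, with Itgb1, the integrin beta subunit of collagen receptors, higher by 0.33 (SE 0.07) and Ddr2, a receptor for fibrillar collagen, lower by -0.40 (SE 0.12). Laminins and other basement membrane partners had 2 higher (Lama1 and Lamb1) and 1 lower (Lama4) of 13, and 2 and 2 after quantile normalization. Against TACI-Ig (28.6% and 30.9% of all genes) the counts higher and lower were 3 and 2 for folding, 4 and 3 for cleavage, 1 and 4 for binding, 2 and 2 for receptors, 3 and 3 for basement membrane partners and 3 and 5 for breakdown.

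The kidneys that stood apart in the series differed in their collagens. In 30-week replicate 2, whose macrophage markers averaged 9.65 next to a group median of 8.14, 7 of 42 collagens were the highest of the group (16.7%, next to 26.1% of all genes) and 12 the lowest (28.6%, next to 25.7%). Its Col3a1 was at 10.67 and Col4a1 at 11.24, both the highest, while Col4a3 (9.71), Col4a5 (8.45) and Col6a3 (7.45) were the lowest. In NZM2410 replicate 3, 15 of 42 collagens were the highest (35.7%, next to 20.6% of all genes) and 3 the lowest (7.14%, next to 24.7%). Without that kidney 27 collagens were called against 30 weeks, 7 higher and 20 lower, in a fit that called 31.5% of all genes higher and 31.1% lower.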

How the data were processed

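Kidney RNA was hybridized to Affymetrix arrays. Per the submitters' processing notes the authors made the deposited log2 expression values with RMA, and per the methods all arrays were normalized and corrected for batch in 1 run, which can move group means. The batches and software version are not given in the sources used here. Of 16539 probe sets, 15780 had 1 gene name, and 64 controls and 695 unnamed sets were left out. Arrays carry no read depth, so precision rests on the number of kidneys. All 42 collagen IDs were found in RefSeq, and upstream sequences are RefSeq's (GRCm38.p6).

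Groups came from the sample labels, and p-values measure the spread between the samples so labelled. Each comparison was fitted with limma 3.58.1 (R 4.3.3) on the kidneys of its groups. P-values were adjusted by Benjamini and Hochberg's method over the 15780 genes, and calls were made at 0.05. The method was tested on simulated data. The alternatives tried were 1 model for the 5 groups together, quantile normalization, median centring, leaving out genes below 6.07, an intensity trend with robust estimation, array weights, the replicate number as a block, and leaving out each kidney. The collagen genes, classes and lists were chosen with earlier results of these data known. Values are given for collagens that passed, averaged above 6, or were fibrillar or type IV, and for at most 5 genes with the smallest adjusted p of each list.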

Additional observations from a re-analysis of the deposited data

Results flagged for a closer look

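Within a group, 6 of 155 sets of values held a kidney far from the others by Dixon's test, where chance alone gives about 1 in 20. In 30-week replicate 2, Col4a5 was at 8.453 (others 8.929 to 9.218) and Col6a3 at 7.448 (others 8.398 to 8.858). In late triple therapy replicate 8, Col6a3 was at 7.743 (others 8.39 to 8.651) and Col20a1 at 6.996 (others 6.599 to 6.735). In early remission replicate 2, Col27a1 was at 10.09 (others 8.826 to 9.3) and the basement membrane score at -0.397 (others -0.1805 to 0.0123).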

How the results depend on the processing

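No collagen passed in the 5 contrasts among NZB/W groups, except 1 (Col4a2) in early remission against 30 weeks and 2 (Col4a1 and Col4a2) in late triple therapy against early remission with array weights. Leaving out each kidney gave 0 to 1 for early remission against 30 weeks, 0 to 3 for TACI-Ig against 30 weeks, 0 to 3 for TACI-Ig against early remission, 0 for late triple therapy against 30 weeks, 0 to 1 for late triple therapy against early remission, 20 to 27 for NZM2410 against 30 weeks and 18 to 25 for NZM2410 against TACI-Ig. Without the dimmest genes 11 and 10 collagens were called in the NZM2410 contrasts, since 14 collagens were then not tested. Quantile normalization turned the sign of dim chains (Col17a1 and Col11a2 against 30 weeks stand with that contrast, and Col11a2 went from -0.14 to 0.05 against TACI-Ig, without a call), to 0.022 (Col6a5), 0.049 (Col9a3), 0.060 (Col11a1), 0.26 (Col13a1), 0.083 (Col19a1) and 0.029 (Col24a1) against 30 weeks and to 0.095 (Col6a5), 0.087 (Col9a3), 0.013 (Col11a1), 0.12 (Col13a1), 0.18 (Col17a1), 0.036 (Col19a1) and 0.034 (Col24a1) against TACI-Ig. Some chains above 6 also turned, none with a call. These were Col20a1 against 30 weeks (0.04 to -0.04), and Col4a1 (0.11 to -0.10) and Col2a1 (-0.006 to 0.009) against TACI-Ig. With the replicate number as a block, 0 collagens were called in the NZB/W contrasts, 23 in NZM2410 against 30 weeks and 19 against TACI-Ig. Of 33 same-numbered pairs 8 correlated above 0.1 (range -0.71 to 0.34). These correlations cannot decide whether the numbers pair the samples, and the main fits took the samples as unpaired. The NZM2410 kidneys share strain, treatment and perhaps batch, which cannot be told apart.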
